A study of Mus musculus with 15 samples.

Results

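Calpains are cytosolic cysteine proteases that cut a limited number of sites in their targets, and the conventional members are switched on by calcium. The 10 calpain genes described here were Capn1, Capn2, Capn3, Capn5, Capn6, Capn7, Capn10, Capn11, Capn15 and Capns1, taken by name from 53337 genes in a table of dorsal forebrain mRNA. Capn11 was chosen by its TPM difference between AVP and saline males in these same libraries, so that difference is given as a description without a test, and the other 9 joined it as genes of the family. The tissue was dorsal forebrain of C57BL/6J mice at embryonic day 18 (E18), from dams infused subcutaneously through pregnancy with arginine vasopressin (AVP), which models preeclampsia, or with saline, which the labels call vehicle. Male offspring gave 4 libraries with AVP and 4 with saline, female offspring gave 3 and 4, and each library is named below by group and number. The paper left out a further AVP female as an outlier for high variance, which left that group at 3. The comparisons asked whether maternal AVP changed these mRNAs in male and female offspring.

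CAPN1 and CAPN2 are the catalytic large subunits of the conventional calpains, and each pairs with the small regulatory subunit made from Capns1. Calpastatin, from Cast, is their dedicated inhibitor. In the brain these enzymes are known for limited cleavage of spectrin, microtubule-associated proteins and synaptic receptors. Some of the other members lack the calcium-binding domain that pairs with the small subunit, and carry domains of their own.

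The protease core turns on a catalytic cysteine, so the bases around that codon show how near the members are to each other. The windows below give the coding sequence, 5′ to 3′, of the codon aligned with the catalytic cysteine of Capn2 (in capitals) with 21 bases on each side, from GENCODE M21 transcripts of GRCm38.

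Capn11: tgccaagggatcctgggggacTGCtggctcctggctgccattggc
Capn2: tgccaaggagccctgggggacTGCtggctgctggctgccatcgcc
Capn1: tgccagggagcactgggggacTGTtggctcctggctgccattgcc
Capn3: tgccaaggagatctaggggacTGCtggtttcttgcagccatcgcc
Capn10: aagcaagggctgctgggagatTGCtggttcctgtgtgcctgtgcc
Capn15: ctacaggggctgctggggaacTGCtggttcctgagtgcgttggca
Capn5: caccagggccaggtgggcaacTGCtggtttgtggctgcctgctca
Capn6: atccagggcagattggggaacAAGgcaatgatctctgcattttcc
Capn7: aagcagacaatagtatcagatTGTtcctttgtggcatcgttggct

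The codon for cysteine stood at this place in 8 of the 9, and in Capn6 the aligned codon was AAG, for lysine. Capn6 is known as a calpain without protease activity. Over the 45 bases, Capn2 differed from Capn11 at 6 positions, Capn1 at 7 and Capn3 at 11, and Capn7 differed most, at 27. The Capn11 codon lies at bases 45643865 to 45643867 of chromosome 17, on the minus strand, and is codon 115 of 714 in transcript Capn11-201. The translated Capn11 was 52.3% identical with Capn1 over 698 aligned residues, 51.4% with Capn2 and 51.1% with Capn3. Capns1 has no protease core, and its alignment with Capn11 covered 164 residues. None of the 2561 words of 31 bases in Capn11-201 occurred in a transcript of another gene.

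The members lie at separate places in the genome. In GRCm38 coordinates, Capn11 covers chr17:45630204-45659325 and Capn15 covers chr17:25958364-25985796, both on the minus strand. Capn2 (chr1:182467260-182517608, minus) and Capn10 (chr1:92934376-92947941, plus) share chromosome 1. Capn6 is X-linked (chrX:143802231-143827414, minus). Promoter windows of 300 bases, from 250 before to 50 after the start in RefSeq (GRCm38.p6), were found for 9 of the 10 genes. The windows of Capn11 and Capn10 are shown as the CpG-poor and the CpG-rich kind among members, 5′ to 3′ on the strand of the gene with each CG in capitals.

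Capn11, chr17:45659260-45659559, minus: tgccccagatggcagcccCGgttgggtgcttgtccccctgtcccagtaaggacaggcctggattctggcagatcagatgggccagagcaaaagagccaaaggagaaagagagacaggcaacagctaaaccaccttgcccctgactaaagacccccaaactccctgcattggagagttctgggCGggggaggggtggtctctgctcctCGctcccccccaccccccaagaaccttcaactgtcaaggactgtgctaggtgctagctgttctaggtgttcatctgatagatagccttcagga
Capn10, chr1:92934158-92934457, plus: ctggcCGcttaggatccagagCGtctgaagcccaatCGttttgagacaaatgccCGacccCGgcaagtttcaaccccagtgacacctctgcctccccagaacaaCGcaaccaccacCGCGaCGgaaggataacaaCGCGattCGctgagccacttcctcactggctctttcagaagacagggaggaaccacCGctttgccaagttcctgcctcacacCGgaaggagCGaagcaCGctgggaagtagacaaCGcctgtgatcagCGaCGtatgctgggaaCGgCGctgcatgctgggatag

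The motif counted was CG, which reads the same on both strands. Capn11 held 3, Capn6 held 5, and the 2 windows of Capn3 held 6 and 4. Capn2 held 27, Capn7 held 25, Capn10 held 21 and Capns1 held 14. Over all 32851 promoter windows the median was 7, and 94.6% held at least 1. The windows of Capn11, Capn6 and Capn3, the 3 genes with the lowest mean levels below, thus held 6 or fewer. Capn1 had 2 windows, with 14 and 15, and Capn15 had 3, with 3, 25 and 22.

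The samples gave a common background to all of these values. The levels are in TPM, in which each transcript is scaled by its length and by the sum of its library, so depth is unknown and no counting interval can be given. TPM were summed to genes and tested as log2(TPM + 0.5), a scale on which the change of low genes is understated. Defining markers of dorsal forebrain summed to between 962 and 1321 TPM in every library. Markers of choroid plexus ranged from 7.14 to 2282 TPM and those of red blood cells from 2241 to 13657 TPM. The library labelled saline male 3 had Xist at 265.7 TPM and Y-linked genes at 0.489 TPM in sum, against at least 102 TPM in the other 7 male libraries, so its sex-linked transcripts went against its label. It was kept under its label, and the differences of the members without it are given with the family counts. In bulk tissue, fewer cells of a type and less RNA per cell cannot be told apart.

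Capns1, the small regulatory subunit, had the most mRNA of the family in each library, at 152 ± 12.1 TPM (SD, n = 15) and 44.1% of the summed TPM of the 10 genes. Capn2, Capn7 and Capn10 followed at 51.6 ± 4.73, 51.1 ± 5.29 and 46.7 ± 6.59 TPM. Capn2 exceeded Capn7 in 9 of 15 libraries, so this pair did not differ beyond its spread, and Capn7 exceeded Capn10 in 11. CAPN7 works with the ESCRT-III machinery of membrane remodelling, and CAPN10 is known from genetic studies of type 2 diabetes. Capn15 and Capn5 formed the next step, at 18.7 ± 4.79 and 17.3 ± 2.29 TPM, with Capn15 higher in 9 of 15. CAPN15 has zinc fingers and is needed for eye development, and CAPN5 is linked to an inherited inflammatory eye disease. Capn1, Capn11, Capn6 and Capn3 lay lowest, with means of 3.20, 2.30, 1.43 and 0.934 TPM, and their order varied from library to library. Capn1 was above Capn11 in 10 of 15 libraries, and in saline females the mean of Capn11 (4.50 TPM) was above that of Capn1 (3.48 TPM).

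**Figure D1:**
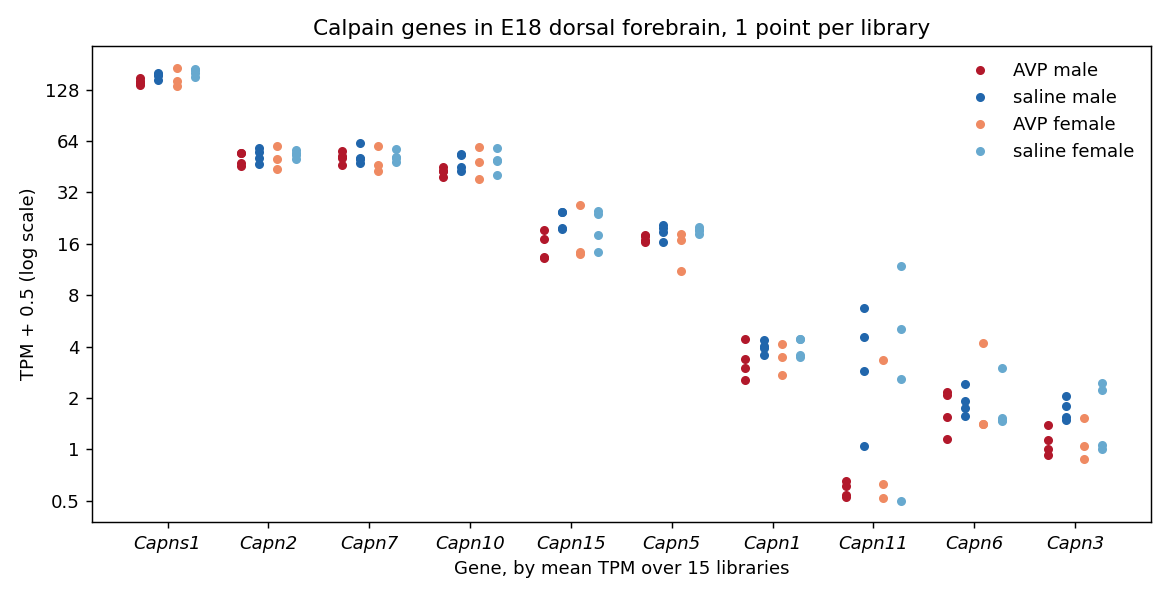
TPM + 0.5 on a log scale for each calpain gene, ordered by mean level, with 1 point per library and a colour per group. Capns1 lies at the top in all 15 libraries, and Capn11 runs from 0 to 11.4 TPM while Capn2, Capn7 and Capn10 each stay within a narrow band.

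The conventional large subunits were unequal in mRNA. Capn2 exceeded Capn1 by 16.8 ± 3.93 times (SD, n = 15), with a range from 11.9 to 26.5. Capns1 exceeded the sum of both by 2.79 ± 0.191 times, from 2.41 to 3.22, which was the steadiest of the 3 ratios examined. These ratios used all annotated transcripts, and retained-intron forms held 52.2% of Capns1 TPM. On coding transcripts alone Capns1 was at 64.3 ± 11.2 TPM, Capn2 at 38.1 ± 2.52 TPM and Capn1 at 3.20 ± 0.625 TPM, so the excess was smaller there. Cast lay between 3.19 and 7.16 TPM, and Capn1 plus Capn2 exceeded it by 11.2 ± 2.18 times. The other family genes were low in every library. Capn8, Capn9, Capn12, Capn13 and Capns2 were each at most 0.563 TPM in all 15 libraries, and Capn13 was listed at 0 in most of them.

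The group means of the 3 ratios overlapped. Capns1 over Capn1 plus Capn2 was 2.70 ± 0.210 in AVP males, 2.79 ± 0.207 in saline males, 2.79 ± 0.0833 in AVP females and 2.87 ± 0.239 in saline females. Capn2 over Capn1 spread most in AVP males, with an SD of 6.43, against 1.37 in saline males.

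Capn11, which in the mouse is best known from testis, was either near 0 or clearly above it, and which of these varied by library. In the 4 AVP males it was at 0.15, 0.11, 0.043 and 0.022 TPM. In the 4 saline males it was at 4.05, 2.37, 6.19 and 0.543 TPM. Every AVP male was below every saline male, the contrast that brought the gene to attention. The means were 0.0816 and 3.29 TPM, a difference of 2.41 on the log2 scale, lower in AVP. Within library numbers 1 to 8 and 13 to 20, each with 2 libraries per group in males, it was -2.52 and -2.31. Without saline male 3, which had the highest of the male values, it was -2.04.

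The female libraries did not enter that choice, and they gave both states in both groups. AVP females were at 0.020, 0.122 and 2.84 TPM. Saline females 1 to 4 were listed at 0 and at 11.4, 2.07 and 4.58 TPM. Saline female 1 was thus the lowest of all 15 libraries and saline female 2 the highest, and AVP female 3 was above saline female 3. The difference was -1.53 on the log2 scale (limma, SE 1.06, 95% interval -3.94 to 0.88, adjusted p = 0.999). An exact two-sided permutation test gave p = 0.40. With 3 against 4 libraries the smallest p in a single direction is 0.0286. The two-sided p doubles the smaller tail, so this test could not reach 0.05. The interval included both no difference and the difference described in males. Of the 15 libraries, 7 held at least 1 TPM of Capn11.

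**Figure D2:**
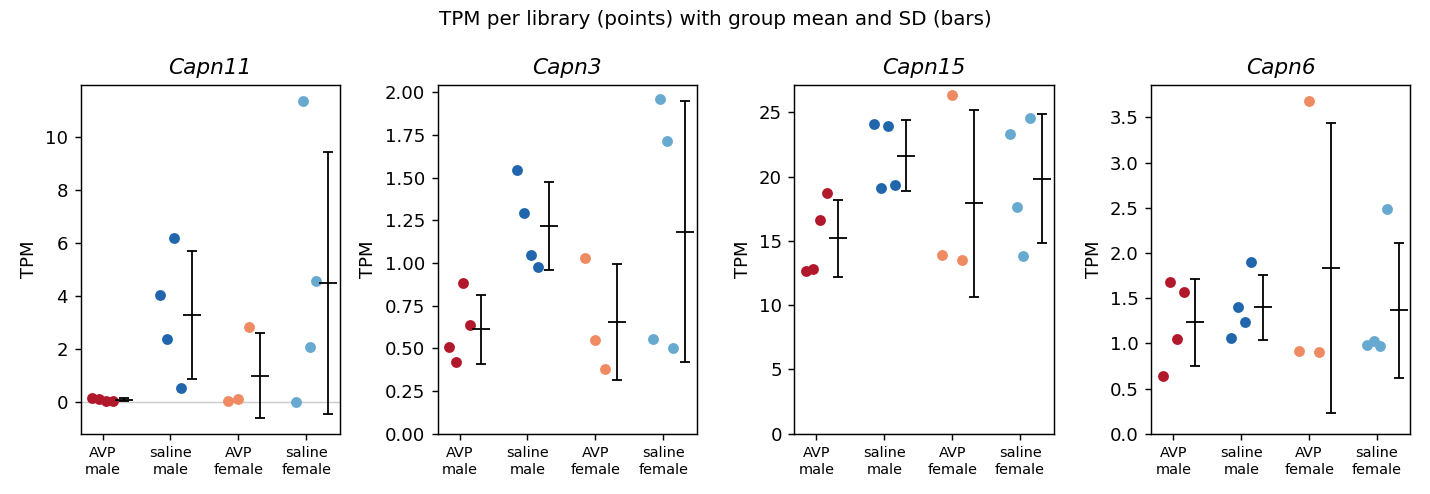
TPM in each library (points) with the group mean and SD (bars) for Capn11, Capn3, Capn15 and Capn6, on linear axes. For Capn11, Capn3 and Capn15 the 4 AVP males lie below the 4 saline males, while the female groups overlap for all 4 genes.

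The protein-coding transcript Capn11-201 held 99.2% of the TPM of Capn11. Its nearest protein-coding neighbour on the upstream side, Tmem63b, is on the same strand with its 3′ end 846 bases away, and was between 94.2 and 171 TPM. Mymx, 28102 bases away on the other side, was at most 0.166 TPM. Tmem63b averaged 114 ± 16.8 TPM in AVP males and 153 ± 20.7 TPM in saline males. Markers of testis and germ cells summed to between 1.20 and 1.99 TPM in all libraries, and 3 of the 7 were at 0 in every library. Choroid plexus markers were at 2282 TPM in AVP female 1, where Capn11 was at 0.020 TPM, and at 960.5 TPM in saline female 2, where it was at 11.4 TPM.

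The gene whose level was most like that of Capn11 over the 15 libraries was Arfgap3 (Pearson r = 0.80 over 15 libraries), which ran from 17.7 to 23.4 TPM. Gm9480, a processed pseudogene, and Mecr followed at r = 0.77 and 0.76. These were the top 3 of 16129 genes compared, and all libraries share the 4 groups. The libraries include the males by which Capn11 was chosen. No chance level was worked out for the top of so many genes, so the likeness is a description. ARFGAP3 acts in traffic at the Golgi and MECR in mitochondrial fatty acid synthesis.

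Capn3, the muscle calpain whose loss in humans causes a limb-girdle muscular dystrophy, showed a like order in males at a low level. It was at 0.51, 0.42, 0.88 and 0.64 TPM in AVP males and at 1.55, 1.29, 1.05 and 0.98 TPM in saline males. The groups did not overlap, with a gap from 0.88 to 0.98 TPM. The log2 difference was -0.63. The exact permutation p was 0.0286, the smallest that 4 against 4 libraries allow, and groups without overlap always give it. Every AVP male was below every saline male in 6.54% of the genes tested in males. Capn3 fell under the filter on low values, and in limma without that filter its adjusted p was 0.464. On protein-coding transcripts alone the log2 difference was -0.20 and the groups overlapped, with AVP males at up to 0.349 TPM and saline males from near 0 to 0.631 TPM. Without saline male 3 the difference over all transcripts was -0.68. In females the values overlapped, at 1.03, 0.55 and 0.38 TPM with AVP against 0.56, 1.96, 1.72 and 0.50 TPM with saline (log2 difference -0.47, exact permutation p = 0.34).

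Only 30.2% of Capn3 TPM lay on protein-coding transcripts, and the non-coding transcript Capn3-208 held 36.6%. Exons of Ganc, on the same strand, overlap 386 bases of Capn3, and Ganc was between 3.68 and 5.26 TPM, so reads of these genes may have been divided between them. Skeletal muscle markers summed to between 4.83 and 11.8 TPM. The nearest patterns to Capn3 were 2900009J06Rik (r = 0.81), Cfap206 (r = 0.80) and Gm49376 (r = 0.80).

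Capn15 gave the largest male difference among the 8 members that passed the filter of at least 1 TPM in 50% of the libraries. AVP males were at 12.7, 12.8, 16.6 and 18.7 TPM and saline males at 24.1, 19.1, 24.0 and 19.3 TPM, without overlap. The log2 difference was -0.51 (limma, SE 0.15, 95% interval -0.84 to -0.17), and its adjusted p of 0.304 missed the threshold of 0.05. It was -0.73 in library numbers 1 to 8 and -0.28 in 13 to 20. Without saline male 3 it was -0.45. Females overlapped, at 13.9, 26.3 and 13.5 TPM with AVP and 23.3, 17.6, 13.8 and 24.5 TPM with saline (log2 difference -0.18, SE 0.28, adjusted p = 0.999). The interaction of treatment and sex was 0.33 (SE 0.33, adjusted p = 0.896). Both values moved with each AVP female. The female difference and the interaction were -0.48 and 0.024 without AVP female 2, -0.033 and 0.47 without AVP female 1, and -0.013 and 0.49 without AVP female 3.

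The transcripts of Capn15 moved unequally. On protein-coding transcripts alone the male log2 difference was -0.18, from 8.22 ± 1.27 TPM in AVP males and 9.40 ± 1.64 TPM in saline males. Its 2 main rows with a retained intron, which do not code for the full protein, differed by more. Capn15-206 was 2.46 ± 0.595 TPM in AVP males and 4.59 ± 1.01 TPM in saline males (log2 difference -0.78, limma adjusted p = 0.364). Capn15-207 averaged 2.72 and 4.96 TPM (-0.92, adjusted p = 0.408). The coding form Capn15-205 was 4.55 ± 0.67 against 5.92 ± 0.258 TPM (-0.36, adjusted p = 0.403).

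The coding share of Capn15 was accordingly 54.5% ± 6.0 in AVP males and 43.5% ± 4.9 in saline males. The share of all TPM of a library on rows of the retained-intron type was 3.66%, 3.52%, 5.49% and 5.94% in AVP males and 6.22%, 5.53%, 6.55% and 5.53% in saline males, so its mean was lower in AVP males (4.65% against 5.96%). The 3.66% and 3.52% came from library numbers 1 to 8, where AVP female 1 was at 3.90% and saline males at 6.22% and 5.53%. In numbers 13 to 20 the males overlapped, at 5.49% and 5.94% with AVP and 6.55% and 5.53% with saline. The part of the retained-intron share in the Capn15 difference was not tested.

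**Figure D3:**
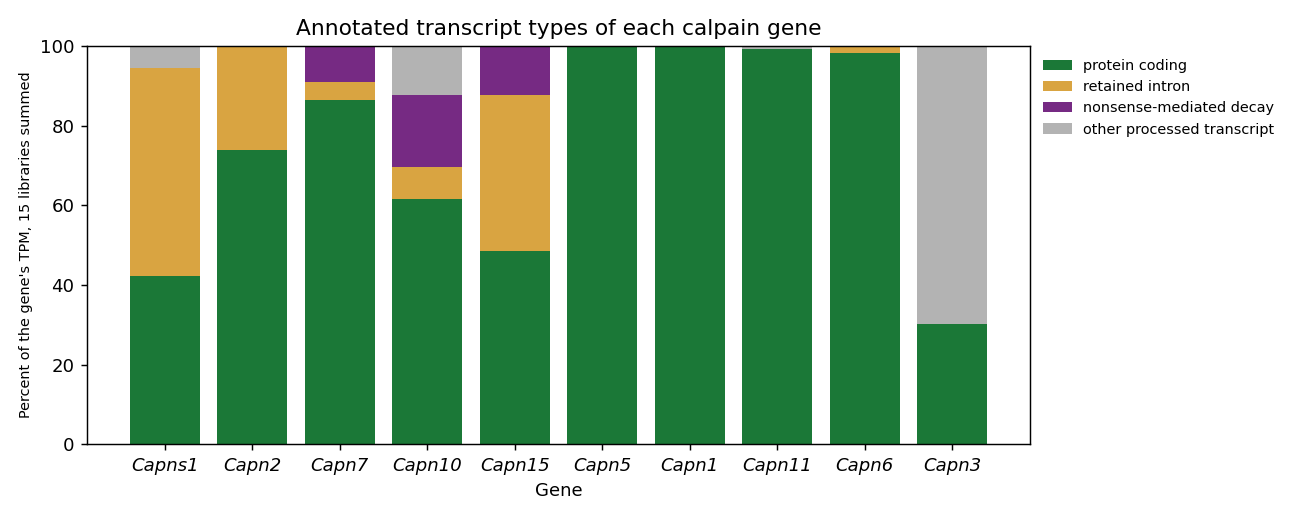
Percent of each gene's TPM on each annotated transcript type, with 15 libraries summed and genes in order of mean level. Capn1 and Capn5 are nearly all protein coding, while in Capns1 retained-intron transcripts hold 52.2% and in Capn15 they hold 39.2%.

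Across the family the coding share of the 15 libraries summed ran from 30.2% in Capn3 to 100% in Capn1. It was 99.7% in Capn5, 98.3% in Capn6, 86.4% in Capn7, 73.8% in Capn2, 61.5% in Capn10 and 42.2% in Capns1. On coding transcripts alone Capns1 was at 64.3 ± 11.2 TPM, above the 38.1 ± 2.52 TPM of Capn2-201, the coding transcript of Capn2. The Capns1 row with the most TPM was Capns1-208, a retained-intron form of 1241 bases, with 30.0% of the gene. Capn10-205, a target of nonsense-mediated decay, held 17.7% of Capn10, and Capn1-202 held 73.0% of Capn1.

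Exons of other genes overlap most members. On the opposite strand, Gm10814 (Capn1), Gm37885 (Capn2), 9430060I03Rik (Capn10), D630044L22Rik and Gm26694 (Capn15) and Gm26810 (Capns1) were each at most 0.518 TPM. Sh3bp5, at 93.6 to 143 TPM, overlaps 116 bases of Capn7 on the opposite strand. The libraries were stranded and the authors quantified them with the strand setting. The miRNA gene Gm47298 lies in an exon of Capn6 and was at most 1.86 TPM.

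Capn1-201, the minor form of Capn1, was 0.509 ± 0.470 TPM in AVP males and 1.64 ± 0.932 TPM in saline males (limma adjusted p = 0.445). Capns1-205, a retained-intron form, went the other way, at 31.7 ± 3.10 TPM in AVP males and 23.3 ± 5.41 TPM in saline males (log2 difference 0.46, adjusted p = 0.376). None of the 29 member transcripts tested in males and none of the 28 tested in females passed the threshold. At an unadjusted p under 0.05, 5 did in males and 1 in females. Over all transcripts, 4767 of 39364 in males and 1156 of 37806 in females had such a p. Over all transcripts, 0.00762% were called in males (3 of 39364) and 0% in females.

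For the conventional calpains, no difference between AVP and saline passed the test. Capn2 was at 45.3, 47.0, 53.8 and 54.1 TPM in AVP males and 50.4, 54.4, 57.9 and 46.5 TPM in saline males, a log2 difference of -0.06 (95% interval -0.27 to 0.15). In females Capn2 differed by -0.07 (95% interval -0.35 to 0.20). Capn1 averaged 2.83 ± 0.810 TPM in AVP males and 3.48 ± 0.333 TPM in saline males, a log2 difference of -0.28 (95% interval -0.70 to 0.14).

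Capns1 was at 139.3, 143.2, 136 and 149.5 TPM in AVP males and 160.7, 156.5, 156.6 and 146.5 TPM in saline males. Saline male 4 lay within the range of the AVP males. The log2 difference was -0.13 in males (95% interval -0.26 to 0.00) and -0.12 in females (95% interval -0.36 to 0.11), with adjusted p of 0.373 and 0.999. Cast differed by -0.17 in males and by 0.10 in females, with adjusted p of 0.761 and 0.999.

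Among the unconventional members, Capn5 was the only member without overlap in females. AVP females were at 17.7, 16.4 and 10.54 TPM and saline females at 19.5, 18.7, 17.8 and 18.7 TPM. The gap between the groups was from 17.7 to 17.8 TPM, and AVP female 3, at 10.54 TPM, was the lowest of all libraries. The log2 difference was -0.35 (95% interval -0.76 to 0.06, limma adjusted p = 0.999), and without AVP female 3 it was -0.13. That library also had the most red blood cell marker TPM (13657) and meningeal fibroblast marker TPM (264), and the part of either in the value was not tested. In males Capn5 overlapped, with a log2 difference of -0.12.

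Capn7 was 50.9 TPM in AVP males and 52.2 TPM in saline males on average, a log2 difference of -0.03 (95% interval -0.25 to 0.19). In females it was 49.3 and 51.5 TPM, a difference of -0.07 (95% interval -0.38 to 0.23). Capn10 was 42.0 and 48.3 TPM in males (-0.19, 95% interval -0.40 to 0.02, adjusted p = 0.392) and 48.0 and 48.9 TPM in females (-0.04, adjusted p = 0.999).

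Capn6, a calpain without protease activity that binds microtubules, spread more within groups than between them. AVP females were at 0.91, 3.69 and 0.90 TPM and saline females at 0.99, 1.03, 0.97 and 2.49 TPM. AVP female 2 and saline female 4 stood above all other libraries, which ran from 0.64 to 1.90 TPM. These 2 libraries were also the first and the third for the summed radial glia markers, at 2715 and 2396 TPM against 1566 to 2406 TPM in the others, and the part of those markers was not tested. The female log2 difference was 0.19 (exact permutation p = 0.86) and the male difference was -0.16 (adjusted p = 0.810). Without AVP female 2 the female difference was -0.33.

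For X-linked Capn6, no difference between females and males passed the test (log2 difference 0.08, SE 0.26, 95% interval -0.46 to 0.63, limma adjusted p = 0.99997). That fit kept saline male 3 as a male and called 0 of 15078 genes, so not even Xist passed. It therefore cannot decide whether Capn6 differs between the sexes. Leaving out single libraries moved the Capn6 difference between -0.15 and 0.17. Its nearest patterns were Col23a1 (r = 0.93), Nfat5 (r = 0.89) and Hs3st3b1 (r = 0.88) over 15 libraries. COL23A1 is a membrane collagen, NFAT5 a regulator of the response to osmotic stress and HS3ST3B1 an enzyme that modifies heparan sulfate. Col23a1 was at 7.94 TPM in AVP female 2 and 7.72 TPM in saline female 4, and between 3.95 and 5.84 TPM in the others.

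**Figure D4:**
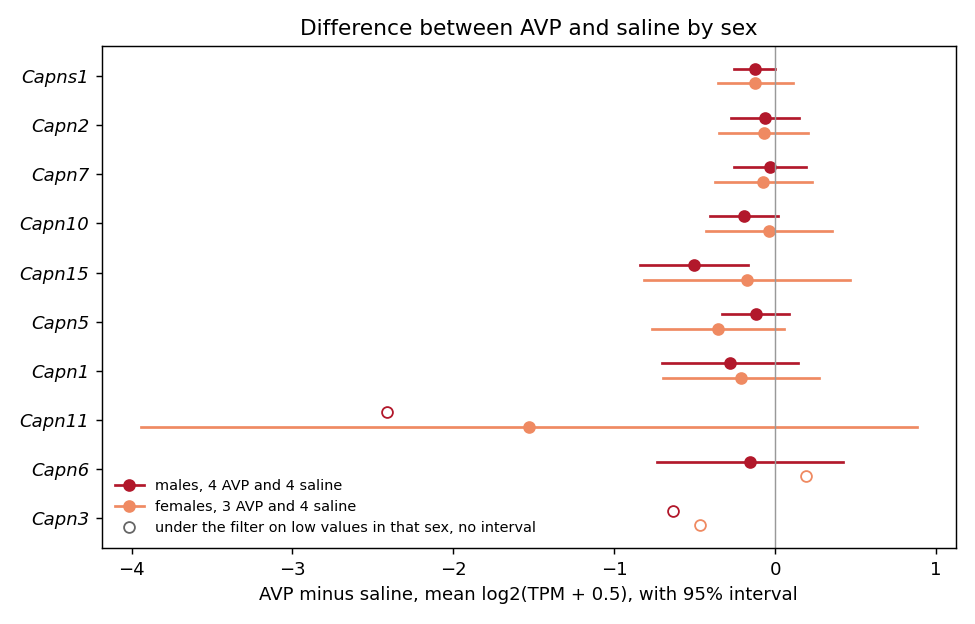
AVP minus saline in mean log2(TPM + 0.5) for each gene, males above females, with 95% intervals from limma where the gene passed the filter. Capn15 in males is the only tested member whose interval leaves out 0, at -0.84 to -0.17, and the interval of Capn11 in females spans -3.94 to 0.88.

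Counted over the family, 0 of 8 members tested in males passed the threshold, against 0.00655% of all genes (1 of 15271). At an unadjusted p under 0.05 there was 1 member and there were 2057 genes in all. In females 0 of 8 passed, against 0% of all genes (0 of 15132, and 683 at an unadjusted p under 0.05), and none had an unadjusted p under 0.05. All 8 male differences were below 0, though Capn2 and Capn7 were above 0 with median-of-ratios scaling and 4 of the 8 with quantile normalization. Over all genes tested in males the median difference was -0.10 and 73.6% were below 0, so the median of the members, -0.14, was to be read against that shift. In females the medians were -0.15 for the members and -0.05 for all genes, of which 63.1% were below 0. Without saline male 3 the male differences were -0.29 for Capn1, -0.013 for Capn2, -0.096 for Capn5, -0.20 for Capn6, 0.049 for Capn7, -0.14 for Capn10 and -0.12 for Capns1, and 0 of the members passed.

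With both sexes fitted together and sex as a term, 0 of 8 members passed, against 0% of all genes (1564 of 15078 had an unadjusted p under 0.05). Capns1 (-0.12, SE 0.05), Capn5 (-0.23, SE 0.10) and Capn15 (-0.35, SE 0.16) had an unadjusted p under 0.05, with adjusted p of 0.470, 0.470 and 0.478. Without saline male 3 these were -0.12, -0.22 and -0.31, each with an adjusted p of 0.659. Fits of both sexes treated all libraries as independent, though a male and a female may share a litter. For the interaction of treatment and sex and for females against males, 0 of 8 members passed as well, against 0% of all genes in each, and none had an unadjusted p under 0.05, against 624 and 210 of all genes.

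Of the 10 members, 3 had every AVP male below every saline male, namely Capn3, Capn11 and Capn15, against 6.54% of the genes tested. Capn11 was among them by choice, and Capn3 was below the filter that the background used. Only Capn15 was left among the 8 tested. Leaving out saline male 3 raised the background to 7.58%. None had every AVP male above every saline male, against 0.733% of genes. In females Capn5 alone had every AVP value below every saline value, against 2.77%, and none had every AVP value above, against 2.78%.

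The genes around the calpains showed no called differences either. Over all genes, 0.00655% were called in males (1 of 15271) and 0% in females (0 of 15132). The penta-EF-hand relatives Sri, Pdcd6, Pef1 and Gca share the calcium-binding fold of the small subunit. All 4 were tested and 0 passed in either sex. None had an unadjusted p under 0.05, against 2057 of 15271 genes in males and 683 of 15132 in females. Gca differed by -0.29 (adjusted p = 0.622) and Pef1 by -0.05 (adjusted p = 0.851) in males, and Sri by -0.09 and Gca by 0.11 in females (both adjusted p = 0.999).

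Chmp1a, Chmp1b and Ist1 encode ESCRT-III proteins that CAPN7 binds. All 3 were tested and 0 passed in either sex, against 0.00655% of all genes in males and 0% in females. None had an unadjusted p under 0.05, against 2057 of 15271 genes in males and 683 of 15132 in females. Ist1 differed by -0.19 (adjusted p = 0.508) and Chmp1b by -0.02 (adjusted p = 0.948) in males. In females Chmp1a differed by -0.09 and Chmp1b by 0.05 (both adjusted p = 0.999).

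Cytoskeletal and adhesion proteins that calpains cut, such as spectrin, talin, filamin and neurofilaments, were represented by 18 genes, all tested. In males 16 were below 0 with a median of -0.08, against 73.6% and -0.10 for all genes, and 0 passed. An unadjusted p under 0.05 was found for 2 of the 18, against 2057 of 15271 genes. Cttn, for the actin-binding cortactin, differed by -0.21 (SE 0.07, adjusted p = 0.310), and Flna, for filamin A, by -0.64 (SE 0.25, adjusted p = 0.330). In females 13 were below 0 with a median of -0.07, against 63.1% and -0.05 for all genes, and 0 passed. Dpysl2, for a protein of axon growth, differed by -0.27 (SE 0.11) and Vim, for the intermediate filament vimentin, by 0.28 (SE 0.15), both with an adjusted p of 0.999.

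Of 16 signalling and synaptic substrates, 15 were tested. In males 10 were below 0 with a median of -0.04, against 73.6% and -0.10 for all genes, and 0 passed. Ptpn1, for a tyrosine phosphatase, differed by -0.21 (adjusted p = 0.321) and Mbp, for myelin basic protein, by -0.20 (adjusted p = 0.50). In females 13 of the 15 were below 0 with a median of -0.14, against 63.1% and -0.05 for all genes, and 0 passed. Cdk5r2, for p39, an activator of CDK5, differed by -0.66 (SE 0.28), with an adjusted p of 0.999. In each of these 2 lists, 1 gene had an unadjusted p under 0.05 in females, and in the signalling list 1 had in males.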

How the data were processed

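mRNA-seq libraries (TruSeq Stranded) of 15 E18 dorsal forebrains were used. Per the submitters' processing notes, tools included Trim Galore 0.4.1, FastQC 0.5.2, kallisto 0.43.1 and sleuth 0.29.0, with GRCm38. The authors quantified transcripts with Kallisto, and the deposited values are TPM of single transcripts, without counts. These TPM were summed to genes with GENCODE M21, also of GRCm38. Genes reaching 1 TPM in 50% or more of the libraries compared were tested as log2(TPM + 0.5) by limma 3.58.1 (R 4.3.3), using its mean-variance trend, two-sided, with Benjamini-Hochberg adjustment over all genes or transcripts and a threshold of 0.05. Exact permutation tests (SciPy 1.17.1) were run for Capn3 in each sex and Capn6 in females, which fell under the filter. Capn11 had one in females, where it passed the filter, and none in males. Coding sequences were aligned with Biopython 1.88, by local alignment of their translations, and figures drawn with matplotlib 3.10.9. The limma fits of genes within males and within females were tried on simulated data, and the other fits and tests were not. Members and gene lists were chosen with earlier results of these data known. The named genes were the members, the other family genes, Cast, neighbours and overlapping genes, the 3 nearest patterns of the low members and, from each list, the 2 with the smallest unadjusted p in each sex. A gene that this rule would name is not reported here. The 16 samples of the protocol came from 8 litters, and the paper gives the libraries of a group separate litters. A male and a female library may thus share a litter. The labels do not tie libraries to litters, so litter was in no fit and p-values measure only the spread between these libraries. Alternatives were other filters, pseudocounts and scalings, no trend in limma, a term for the run of library numbers, 1 fit of all libraries, coding transcripts alone, and leaving out each library. Leaving out saline male 3 for the share of genes without overlap was chosen after seeing the data.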

Additional observations from a re-analysis of the deposited data

Results flagged for a closer look

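Capn6 was at 2.49 TPM in saline female 4, far from the other 3 saline females, whose values lay between 0.97 and 1.03 TPM. The gap to the nearest library was 0.962 of the range of the group, above Dixon's critical value for 4 libraries. Of 30 groups of 4 examined, 1 stood out in this way, and chance alone marks about 1 in 20.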

How the results depend on the processing

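No member passed the threshold in a comparison under any alternative. The number of genes called in males, 1, became 0 with at least 5 TPM in every library, with a pseudocount of 1, with the run of library numbers as a term and with 1 fit of all 15 libraries, and 2 without the trend. Leaving out a library gave between 0 and 6 in males (6 without AVP male 2 and 0 without saline male 3) and between 0 and 6 in females (6 without saline female 4). It gave between 0 and 1 with both sexes together and for the interaction, and between 0 and 7 between the sexes (7 without saline male 3 or saline female 1). Transcripts called in males, 3, became 0 without a filter, 1 with a pseudocount of 1 and 5 with median-of-ratios scaling, and between 0 and 11 without a library (11 without AVP male 2), and in females between 0 and 1. The causes were not tested.

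Some small differences changed sign. In males, median-of-ratios scaling gave 0.049 for Capn2 and 0.079 for Capn7, quantile normalization gave 0.061, 0.021, 0.011 and 0.084 for Capn2, Capn5, Capn6 and Capn7, and coding transcripts alone gave 0.044 for Capn7. Quantile normalization gave 0.031 for Capn10 in females. With both sexes, Capn2 and Capn7 gave 0.0078 and 0.023 with median-of-ratios scaling and 0.031 and 0.044 with quantile normalization, and Capn6 gave -0.022 with a pseudocount of 0.1 and -0.028 with the run as a term. The interaction of Capn15 became -0.051 on coding transcripts. Without a library, Capn6 ran from -0.28 to 0.028 in males, -0.33 to 0.45 in females, -0.23 to 0.11 with both sexes and -0.15 to 0.17 between the sexes. Likewise Capn7 ran from -0.077 to 0.049 in males and -0.22 to 0.025 in females, and in females Capn2 from -0.19 to 0.037 and Capn10 from -0.19 to 0.12. The difference of Capn11 kept its sign, at -2.94 to -2.04 in males and -2.39 to -0.86 in females. No paired analysis was possible because the replicate numbers only count libraries within a group and the labels link no libraries across groups. The TPM hold no depth, so values near 0 could not be set against a counting limit.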
